A study of Sus scrofa with 22 samples.

Results

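The comparison concerns the response of the uterine epithelium to pregnancy, and asks in which genes the difference between pregnant and control gilts was not the same in luminal epithelium (LE) and glandular epithelium (GE). It rests on the 16 LE and GE libraries among the 22 of the data set, 1 LE and 1 GE library from each of 8 gilts, and on the 10851 genes listed for both cell types (11415 were listed for LE and 11676 for GE). The gilts were prepuberal crossbreds of German Landrace and Piétrain, and all 8 received PMSG followed by hCG to time ovulation. The 4 pregnant gilts were inseminated with semen and carried filamentous conceptuses, whereas the 4 control gilts received the supernatant of centrifuged semen of the same boar and were not pregnant. Both groups were slaughtered on Day 12, and areas of LE and GE were cut by laser capture microdissection (LCM) from stained frozen sections of endometrium. RNA of each area was amplified from a very small input before sequencing. Each library holds tissue captured as 1 cell type from 1 animal, with other cells in it, so that fewer cells of a type and less RNA per cell cannot be told apart.

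In the pig, the LE lines the uterine cavity and is the surface that the conceptuses touch when they elongate and begin to secrete estrogens, interleukin 1 beta and interferons. The glands lie deeper in the stroma, are reached by these signals through the tissue, and secrete the histotroph that feeds conceptuses before attachment. Signals of the conceptus act through receptors such as the type I interferon receptor (IFNAR1 and IFNAR2) and through NF-κB and MAP kinase cascades, and they change transport of sugars and ions, prostaglandin signaling and adhesion.

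The quantity tested is the effect of pregnancy in LE minus the effect in GE, on the log2 scale, called the interaction below. A positive value means that expression in pregnant gilts was shifted upwards more (or downwards less) in LE than in GE. It was tested for all genes with the quasi-likelihood F test of edgeR, with the gilt as a block, and p-values were adjusted by Benjamini-Hochberg (FDR). Effects within LE or GE come from separate fits of 8 libraries each and are given as a description. Levels are given as CPM, the reads of a gene scaled to a common library total, after TMM normalization.

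The libraries held between 887648 (pregnant LE of gilt 01) and 3997817 counts on these genes, so that 3 counts corresponded to 0.750 to 3.38 CPM. All 10 epithelial markers were listed, and each was above 0 in all 16 libraries. Their summed level was 2970 to 3580 CPM in control LE, 2100 to 3680 in pregnant LE, 803 to 2330 in control GE and 2190 to 3190 in pregnant GE. Of 7 gland markers only PRSS8 was listed for both cell types, while FOXA2 was listed for GE only and LGR5 for LE only. PRSS8 had medians of 40.1 CPM in control LE, 30.1 in control GE, 49.7 in pregnant LE and 48.5 in pregnant GE. These markers were thus mixed and do not settle the label GE. Fibroblast markers were present in every library, with sums of 12900 to 18900 CPM in control LE, 9420 to 24500 in pregnant LE, 4420 to 50500 in control GE and 10600 to 33100 in pregnant GE. In every library this sum was above that of the epithelial markers. None of the 10 fibroblast markers was called by edgeR or DESeq2, none had an unadjusted p below 0.05, and their median interaction was −0.0652. The highest sums belonged to the control GE library of gilt 02 and to both libraries of pregnant gilt 01, which also had the highest sums over 3 smooth muscle markers. The interaction counts below are therefore also given without these 2 gilts. Leukocyte markers (7 of 16 listed) summed to 300 to 353 CPM in pregnant LE and to 144 to 314 in the other groups. Only 1 of them, LAPTM5, was called, at 72.1 ± 13.5 CPM (SD, n = 4) in control LE, 229 ± 27.4 in pregnant LE, 53.1 ± 10.8 in control GE and 52.2 ± 20.1 in pregnant GE. Among these 7, the effect of pregnancy in LE (log2) was below 0 for PTPRC (−0.905), CSF1R (−0.786), CD163 (−0.75), ITGB2 (−0.505) and LCP1 (−0.448). It was above 0 for CD68 (0.935) and LAPTM5 (1.69), so that the sum does not stand for all members. The part of these other cells in the results was not tested.

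The effect of pregnancy differed between LE and GE in 8 of 10851 genes at an FDR below 0.01, which is 0.0737% of the genes tested. In 7 of them (GAB1, HUNK, IFNAR2, PCK2, NUPR1, BCAS3 and SPTY2D1) pregnancy was accompanied by a larger increase in LE, and in 1 (TNIK) by a decrease in LE beside a higher mean in GE. At an FDR below 0.05, used as the second threshold, 176 genes (1.62%) were called, 90 (0.829%) with a more positive effect in LE and 86 (0.793%) with a more negative effect. Scaling by library size alone gave 73 and 120, with the median of all genes at −0.13 in place of −0.00829. These 176 are the called genes in what follows. Their effects were large in LE and small in GE, with a median size of 2.37 in LE and 0.461 in GE (log2), against 0.411 and 0.261 over all genes. The effect was larger in LE for 172 of the 176 and larger in GE for 4, while over all genes it was larger in LE for 65.8%.

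The 90 genes with a positive interaction had median effects of 2.50 in LE and 0.560 in GE, and 69 of them were also higher in pregnant GE. The 86 with a negative interaction had median effects of −2.23 in LE and −0.0142 in GE, and were split in GE into 41 above and 45 below 0. Sorted by a change of 1 on the log2 scale, 70 genes were higher in pregnant LE and 79 were lower in pregnant LE with GE inside this limit, and 18 were higher in both, more so in LE. Only KCTD1 was lower in both by more than this, and 3 genes (DNAJC12, STOM and LOC110259667) were lower in LE and higher in GE. The remaining 5 changed by less than this in LE. Of 1084 genes with an LE effect at an FDR below 0.01, 154 were called in the interaction, and of 78 genes with a GE effect at an unadjusted p below 0.0021, 9 were called.

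**Figure D1:**
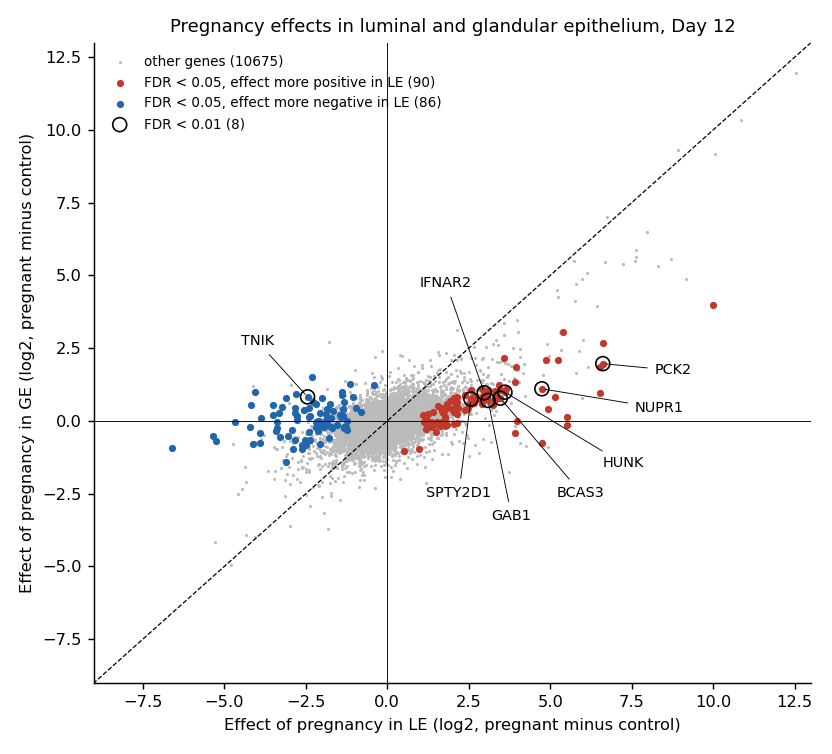
Effect of pregnancy in LE (horizontal, log2) against the effect in GE (vertical, log2) for 10851 genes, with the dashed line where both are equal. Of the called genes (90 red, 86 blue), 149 changed by over 1 in LE and by less than this in GE, 18 were higher in both by over 1, and circles mark the 8 genes at an FDR below 0.01.

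The within-gilt difference between LE and GE (log2 CPM) separated the 4 pregnant from the 4 control gilts in all 176 called genes. Over all genes this separation was seen in 1114 (10.3%). The call rests on the same difference, so that its separation in called genes largely follows from the selection and is no separate support. The LE groups alone did not overlap in 170 of the 176 (26.6% of all genes) and the GE groups in 24 (5.25% of all genes). The number of calls depended on single animals. Without one gilt at a time, the count at an FDR below 0.05 was 11 (without control gilt 04), 14 (pregnant 05), 16 (pregnant 03), 38 (control 06), 52 (pregnant 01), 154 (control 02), 164 (control 13) and 275 (pregnant 14), and without both gilts 01 and 02 it was 93. The count at an FDR below 0.01 was 8 without pregnant gilt 14 (1 gene shared with the 8 above) and 0 in the other 7 fits.

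GAB1, a docking protein that links receptor tyrosine kinases to downstream cascades, had the smallest p. Its level in LE was 66.3, 76.1, 65.8 and 52.6 CPM in control gilts 02, 04, 06 and 13, and 522, 743, 553 and 365 CPM in pregnant gilts 01, 03, 05 and 14. In GE of the same gilts it was 74.0, 124, 69.2 and 73.4 CPM in the control and 146, 152, 139 and 117 CPM in the pregnant group. The LE groups lay far apart, whereas the GE groups overlapped. The interaction was 2.29 ± 0.23 (SE, adjusted p = 0.00853 by edgeR), the same adjusted p as for HUNK, IFNAR2, TNIK and PCK2.

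IFNAR2, a subunit of the receptor for type I interferons, was at 24.2, 36.4, 22.9 and 29.8 CPM in control LE and at 164, 261, 275 and 175 CPM in pregnant LE. In GE it rose from 25.8, 26.6, 20.2 and 23.6 CPM to 41.0, 52.6, 54.9 and 39.6 CPM. Both cell types were separated by pregnancy, LE by more (interaction 1.98 ± 0.21). HUNK, a serine/threonine kinase, was at 3.73 to 8.14 CPM in control LE and at 76.9, 99.1, 59.8 and 15.6 CPM in pregnant LE. In GE it was at 7.27 to 14.3 CPM in the control and at 25.5, 29.9, 19.2 and 5.55 CPM in the pregnant group. Gilt 14 was the lowest of the pregnant gilts in both cell types, but its LE level was above its GE level as in the other 3, and the interaction was 2.6 ± 0.27.

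PCK2, the mitochondrial phosphoenolpyruvate carboxykinase, had the largest interaction of the 8 genes, 4.56 ± 0.50. In control LE it was at 0.745, 0.815, 1.05 and 1.16 CPM, close to the level of 3 counts, and in pregnant LE at 122, 183, 70.3 and 12.2 CPM. GE ranged from 3.13 to 7.42 CPM in the control and from 4.16 to 44.2 CPM in the pregnant group. NUPR1, a nuclear protein induced by cellular stress, was at 4.22 to 24.4 CPM in control LE and at 128, 136, 739 and 242 CPM in pregnant LE, with 23.9 to 50.3 and 41.7 to 127 CPM in GE. In control gilts it was lower in LE than in GE in all 4 animals, and in pregnant gilts it was higher in LE in all 4 (interaction 3.56 ± 0.40, adjusted p = 0.00969 by edgeR).

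BCAS3 and SPTY2D1 had the same adjusted p of 0.00969 (edgeR). BCAS3 was at 33.4 ± 6.50 CPM (SD, n = 4) in control LE, 364 ± 146 in pregnant LE, 51.7 ± 15.2 in control GE and 88.9 ± 37.8 in pregnant GE, an interaction of 2.63 ± 0.30. SPTY2D1, a histone chaperone, was at 73.6 ± 10.7, 429 ± 166, 92.4 ± 19.3 and 156 ± 45.2 CPM in the same order, an interaction of 1.75 ± 0.20. In both genes the lowest pregnant LE library was above the highest control LE library.

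TNIK, a kinase that activates WNT target genes and acts on the cytoskeleton, was the only 1 of the 8 with a negative interaction (−3.35 ± 0.36). It was at 78.2, 82.3, 107 and 81.4 CPM in control LE and at 9.46, 16.3, 18.1 and 17.2 CPM in pregnant LE. In GE it was at 58.4, 39.2, 105 and 82.2 CPM in the control and at 92.5, 72.5, 197 and 144 CPM in the pregnant group. LE of pregnant gilts thus lay below every other library, while the GE groups overlapped. All 8 genes were called at an FDR below 0.05 in each of the 8 fits without 1 gilt.

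**Figure D2:**
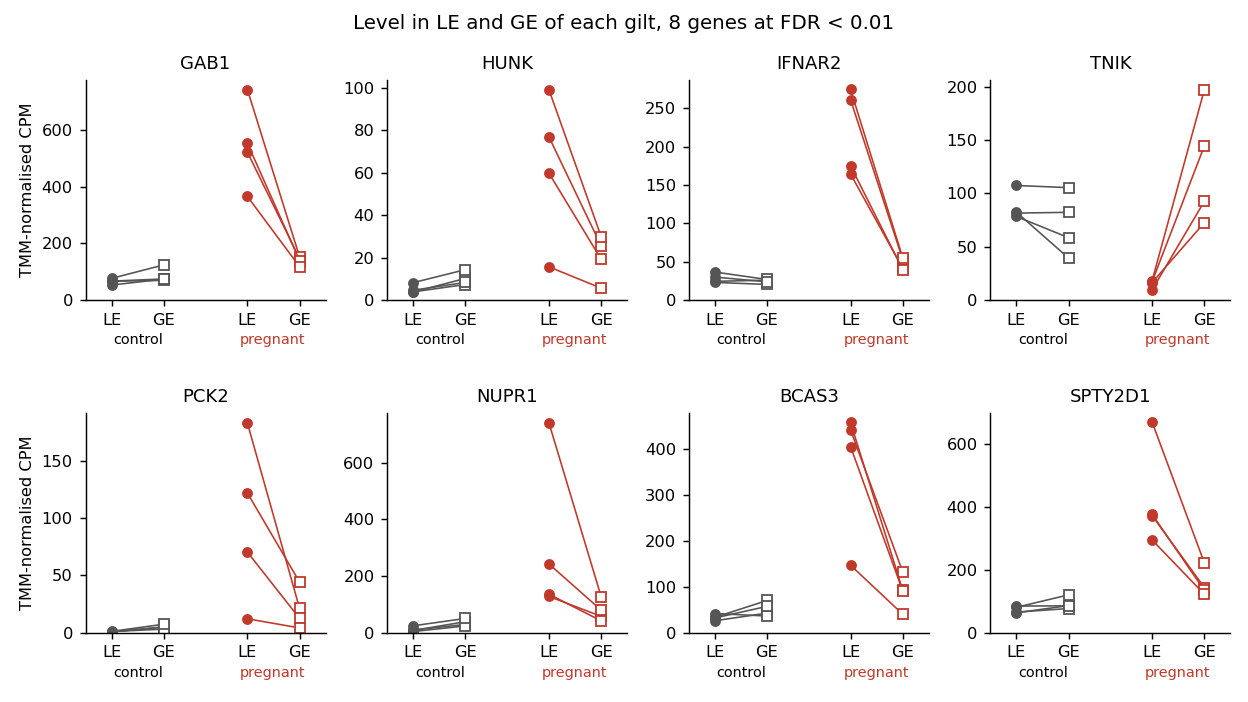
TMM-normalised CPM (linear axes from 0) of the 8 genes at an FDR below 0.01 in LE (filled circles) and GE (open squares), with a line joining the libraries of each gilt, control gilts grey and pregnant gilts red. In all 4 pregnant gilts the lines fall from LE to GE in 7 genes and rise in TNIK, least steeply in gilt 14 for PCK2, and in control gilts TNIK of gilt 04 falls from 82.3 to 39.2 CPM.

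In the interferon list, 2 of 36 genes were called, both receptor subunits and both with a positive interaction, and the median of the list was −0.106 (all genes, −0.00829). IFNAR1, the partner of IFNAR2, was at 163 ± 26.1 CPM in control LE and 949 ± 278 in pregnant LE, and at 116 ± 19.0 and 240 ± 51.8 in GE. Its interaction was 1.46 ± 0.23 (adjusted p = 0.0237 by edgeR). EIF2AK2, an interferon-induced kinase, had −0.89 ± 0.23 (adjusted p = 0.0919 by edgeR). The receptor subunits thus rose more in LE without a common shift of the 36 genes.

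IFNAR1 and IFNAR2 are neighbors on chromosome 13 (Sscrofa11.1, 196925731 to 196951398 and 196765915 to 196852640), with IL10RB between them. The run of joined genes from SYNJ1 (from 196230101) to IFNAR1 held 5 genes, of which 4 were called. SYNJ1, a phosphoinositide phosphatase, had an interaction of 2.10 ± 0.26, and PAXBP1 had 1.65 ± 0.26. IL10RB, a subunit of receptors for interleukin 10 and type III interferons, was higher in both cell types of pregnant gilts (effects of 3.06 in LE and 1.51 in GE), and its interaction of 1.52 ± 0.40 was not called (adjusted p = 0.0987 by edgeR). IFNGR2 on the far side of IFNAR1 had 1.5 ± 0.44 (adjusted p = 0.13 by edgeR). HUNK lies further out on the same chromosome (195528526 to 195666685), with 3 joined genes between it and SYNJ1, none of them called. Among the 173 called genes with a chromosome position there were 13 runs of 2 called genes and 3 runs of 3 or more, when at most 1 other joined gene was allowed between neighbors. How many such runs would arise by chance was not computed.

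The second of these longer runs held the metallothioneins, small proteins that bind zinc and copper, on chromosome 6. Of its 5 genes MT3, MT-2B, LOC102166944 (annotated as metallothionein-like) and MT1A were called, all with a negative interaction, and MT1D had −3.68 ± 0.80 (adjusted p = 0.0559 by edgeR). MT-2B was at 111, 188, 294 and 114 CPM in control LE and at 2.37, 10.7, 4.23 and 26.2 CPM in pregnant LE. GE of the same gilts was at 59.6, 300, 312 and 209 CPM in the control and at 219, 276, 250 and 197 CPM in the pregnant group. Pregnant LE was below all other libraries, and the GE groups overlapped (interaction −4.53 ± 0.70). MT1A had 0 counts in 3 of 4 pregnant LE libraries and 6.24 CPM in gilt 14, against 13.8 to 63.3 CPM in control LE. Exons of these paralogs resemble each other, and the assignment of reads that fit several of them is not described, so that the genes are uncertain as separate measurements. The third run, on chromosome 8, held EVC2, STX18 and LOC110262053, with interactions of −1.79, −2.10 and −2.62, and MSX1 between them, which was not called. STX18 and LOC110262053 lie next to each other on the same strand, and their reads may be split uncertainly.

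The promoters of 3 metallothioneins are shown because the run responded as a group. Each is the 250 bases before the annotated gene start in RefSeq (Sscrofa11.1, plus strand). Capitals mark the pattern TGCNCNC on either strand, called the core below, where overlapping matches run together but count separately. It is looser than the metal response element core TGCRCNC (R for A or G), so marked stretches need not be that element. In MT-2B the AP-1 motif TGACTCA is also in capitals.
MT3, chr6:18634485-18634734: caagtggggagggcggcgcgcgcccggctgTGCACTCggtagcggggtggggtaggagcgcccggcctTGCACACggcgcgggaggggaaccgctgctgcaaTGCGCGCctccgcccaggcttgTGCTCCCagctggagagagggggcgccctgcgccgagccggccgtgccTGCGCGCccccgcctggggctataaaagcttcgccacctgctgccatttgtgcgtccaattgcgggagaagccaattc
MT-2B, chr6:18644875-18645124: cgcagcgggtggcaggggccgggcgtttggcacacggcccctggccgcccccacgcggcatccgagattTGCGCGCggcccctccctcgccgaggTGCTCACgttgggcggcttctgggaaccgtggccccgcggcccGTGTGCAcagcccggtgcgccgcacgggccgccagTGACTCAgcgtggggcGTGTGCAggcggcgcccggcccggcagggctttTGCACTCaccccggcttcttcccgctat
MT1A, chr6:18671766-18672015: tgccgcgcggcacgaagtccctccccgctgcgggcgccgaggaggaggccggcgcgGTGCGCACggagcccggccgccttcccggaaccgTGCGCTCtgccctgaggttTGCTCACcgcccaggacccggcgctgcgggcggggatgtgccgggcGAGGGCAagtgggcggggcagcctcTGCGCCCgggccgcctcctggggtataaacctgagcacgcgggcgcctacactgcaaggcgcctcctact
The core occurred 5 times in MT3, 5 times in MT-2B and 6 times in MT1A, and in the promoters not shown 5 times in MT1D and 3 times in LOC102166944, which had the largest interaction of the run. Of 10847 promoters of the same length, 51.0% held at least 1 core and 1.78% held 4 or more. At least 1 core was found in 51.1% of the promoters of genes with a positive interaction and in 45.3% of those with a negative interaction. AP-1 (TGAGTCA or TGACTCA) was found in 2 of 90 promoters of genes with a positive interaction (2.22%), in 4 of 86 with a negative interaction (4.65%) and in 2.26% of all promoters. The interferon-stimulated response element (TTTC, any 2 bases, TTTC, both strands) was found in 1.11%, 1.16% and 2.67%. The estrogen response element (GGTCA, any 3 bases, TGACC) was in none of the called genes and in 1 promoter in all.

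**Figure D3:**
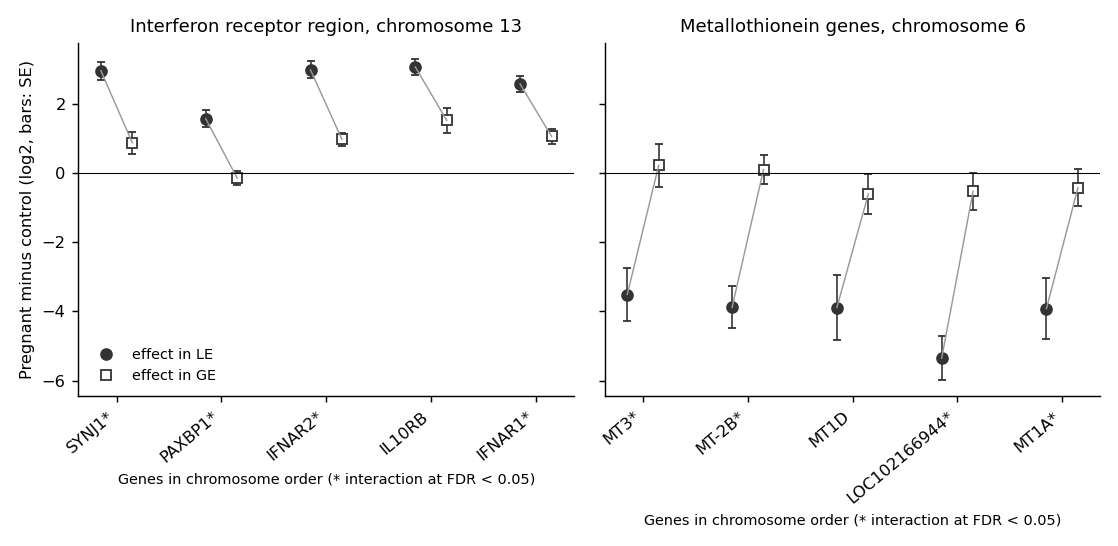
Effect of pregnancy in LE (filled circles) and GE (open squares), log2 with SE, for the 5 joined genes of the interferon receptor run on chromosome 13 and the 5 metallothionein genes on chromosome 6, in chromosome order, with an asterisk on called genes. LE lies above GE in all 5 genes on the left and below GE in all 5 on the right.

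In the list for interleukin 1 and NF-κB, 1 of 24 genes was called (NFKBIA) and the median interaction was 0.427, with 16 genes above and 8 below 0. NFKBIA, the inhibitor that NF-κB induces on itself, was at 11.9, 12.2, 16.9 and 23.3 CPM in control LE and at 141, 65.1, 265 and 163 CPM in pregnant LE. In GE it was at 30.0, 13.1, 17.9 and 24.7 CPM in the control and at 53.5, 21.1, 53.4 and 48.2 CPM in the pregnant group, so that the GE groups overlapped. The interaction was 2.17 ± 0.34 (adjusted p = 0.0238 by edgeR). BIRC3, REL and NFKB2, targets and subunits of the same pathway, had interactions of 1.21, 1.23 and 1.59 with adjusted p of 0.0564, 0.0653 and 0.0658 (edgeR), just outside the threshold. Outside the list, SOD2, the mitochondrial superoxide dismutase and a known NF-κB target, had 2.24 ± 0.34, and the NF-κB regulators TNIP1 and TBK1 had 1.17 and 0.95 (all called). These 3 were picked after their values were seen. In the 8 fits without 1 gilt they were called 4, 1 and 0 times in this order, and NFKBIA 4 times. IL1R1 and IL1RAP, the subunits of the interleukin 1 receptor, had 1.24 ± 0.60 and 1.21 ± 0.51 and were not called.

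Among growth factor ligands, receptors and feedback inhibitors, 2 of 27 genes were called, and they moved in opposite directions. DUSP4, a phosphatase of MAP kinases in the nucleus, was at 8.2, 4.62, 3.87 and 4.65 CPM in control LE and 244, 201, 247 and 194 CPM in pregnant LE. GE went from 2.56 to 10.6 CPM in the control to 20.5 to 67.6 CPM in the pregnant group, so that DUSP4 rose in both cell types and more in LE (interaction 2.32 ± 0.37). DUSP6, the phosphatase of ERK in the cytoplasm, was at 225, 159, 158 and 239 CPM in control LE and at 24.8, 23.9, 31.4 and 76.4 CPM in pregnant LE, with overlapping groups of 162 to 464 and 203 to 510 CPM in GE (interaction −3.23 ± 0.63). The ERK-activated kinase RPS6KA3 (1.26 ± 0.25) was also called, but in none of the 8 fits without 1 gilt. TGFA, a ligand of the EGF receptor, and ERBB3 had 2.07 and 1.71 and were not called (adjusted p of 0.0758 and 0.103 by edgeR). Among immediate early and AP-1 factors, FOSL2 was the only called gene of 21, and was called in none of the 8 fits without 1 gilt. It was at 268 ± 48.7 and 1078 ± 286 CPM in control and pregnant LE, and at 221 ± 41.2 and 378 ± 149 CPM in GE.

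Of 22 secreted uterine proteins, CLU and ACP5 were called, with opposite directions. CLU, a secreted chaperone, was at 29.1, 17.1, 55.9 and 40.9 CPM in control LE and 696, 2459, 358 and 250 CPM in pregnant LE. GE was at 297, 619, 254 and 532 CPM in the control and at 270, 300, 169 and 268 CPM in the pregnant group. It was thus a transcript with higher levels in GE in all 4 control gilts, and with higher LE levels in 3 of 4 pregnant gilts (interaction 4.92 ± 0.77). ACP5, the iron-binding uteroferrin of the histotroph, was at 185, 166, 351 and 157 CPM in control LE and at 36.7, 69.1, 5.43 and 12.8 CPM in pregnant LE. GE was at 674 to 2980 CPM in the control and 1150 to 4627 CPM in the pregnant group, and these groups overlapped (interaction −4.17 ± 0.86). SPP1, the adhesive phosphoprotein osteopontin, had 2.32 ± 0.62 and was not called (adjusted p = 0.1 by edgeR).

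SLC5A1, the sodium-dependent glucose transporter of the apical membrane, was lower in LE than in GE in all 4 control gilts and higher in LE in all 4 pregnant gilts. It was at 32.8, 84.3, 133 and 40.7 CPM in control LE and 954, 1627, 1169 and 568 CPM in pregnant LE, and at 125 to 494 CPM in control GE and 90.6 to 380 CPM in pregnant GE. Its interaction of 4.43 ± 0.52 was just outside an FDR of 0.01 (adjusted p = 0.0101 by edgeR) and was called at 0.05 in all 8 fits without 1 gilt. EMB, a chaperone of lactate transporters, was at 23.8 ± 8.42 CPM in control LE and 3206, 5270, 522 and 244 CPM in pregnant LE, and at 51.2 ± 26.1 and 327 ± 303 CPM in GE (interaction 3.50 ± 0.51). SULT1E1, which inactivates estrogens by sulfation, was at 8.94, 72.0, 30.9 and 5.12 CPM in control LE and 486, 273, 1616 and 1000 CPM in pregnant LE, and at 6.32 to 87.7 and 66.3 to 279 CPM in GE (interaction 2.6 ± 0.38).

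In the calcium list 1 of 27 genes was called. SLC24A4, a potassium-dependent sodium/calcium exchanger, had the most negative interaction of all called genes (−6.73 ± 1.17, adjusted p = 0.0308 by edgeR). It was at 1297, 1402, 1672 and 1106 CPM in control LE and at 7.10, 1.52, 3.02 and 39.9 CPM in pregnant LE. The GE libraries held 807, 1901, 2071 and 2621 CPM in the control and at 786, 1218, 1374 and 507 CPM in the pregnant group. The loss in LE was thus seen in all 4 pregnant gilts, and GE of the same animals kept levels of at least 507 CPM. The calcium channel TRPV6 and the calcium-binding S100G were higher in both cell types of pregnant gilts, with effects of 5.74 and 2.92 in LE and 5.50 and 2.14 in GE, and were not called (interactions of −0.14 ± 0.64 and 0.54 ± 1.14). Both interactions changed sign in some of the alternatives tried.

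Among 15 genes for prostaglandin synthesis, transport and receptors, only the prostaglandin E2 receptor PTGER2 was called. Its level in LE was 73.0, 80.2, 111 and 110 CPM in the control and 5.92, 9.66, 8.15 and 16.8 CPM in the pregnant group. GE levels were 185, 256, 201 and 793 CPM in the control and 472, 915, 828 and 255 CPM in the pregnant group, a difference in means that did not separate the groups (interaction −4.15 ± 0.67). HPGD, the main prostaglandin-degrading enzyme, and the prostaglandin synthase PTGS2 had −1.89 ± 0.99 and −0.65 ± 1.45, and the transporter genes ABCC1 and SLCO5A1 had 1.94 ± 0.66 and 3.01 ± 1.21. None of these 4 was called, and the sign turned for PTGS2 without control gilt 13 (0.359) and for SLCO5A1 with thinned counts (−0.608).

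Of 34 integrins, ligands and adhesion molecules, ALCAM and ITGA6 were called. ALCAM, an adhesion molecule of the immunoglobulin family, was at 56.6, 69.6, 70.7 and 57.5 CPM in control LE and 558, 736, 774 and 461 CPM in pregnant LE, and at 91.3 to 230 and 224 to 503 CPM in GE (interaction 2.35 ± 0.45). ITGA6, a laminin receptor at the base of epithelia, was at 901, 828, 875 and 992 CPM in control LE and at 252, 220, 304 and 570 CPM in pregnant LE. GE ranged from 406 to 775 CPM in the control and from 637 to 1197 CPM in the pregnant group (interaction −2.43 ± 0.48). The integrin subunit ITGAV had 1.26 ± 0.37 (adjusted p = 0.133 by edgeR) and ITGB6 had −0.82 ± 0.60 (adjusted p = 0.58 by edgeR). None of 28 genes of tight, gap and adherens junctions was called, with 12 at an unadjusted p below 0.05 (15.9% of all genes, 1722 of 10851) and 4 called by DESeq2. KRT19, an intermediate filament protein of simple epithelia, was at 156 ± 19.2 and 33.5 ± 24.3 CPM in LE and 116 ± 61.8 and 174 ± 121 CPM in GE (interaction −3.04 ± 0.50). It was the only gene of the 10 epithelial markers called by edgeR, 9 of which had an interaction below 0. Of these markers 4 had an unadjusted p below 0.05, and DESeq2 called 4 (GRHL2, KRT8, KRT18 and KRT19).

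In the WNT list 2 of 22 genes were called, both negative. FZD6, a WNT receptor, was at 203, 182, 275 and 187 CPM in control LE and at 34.3, 46.3, 44.7 and 60.2 CPM in pregnant LE, and at 124 to 202 and 99.8 to 186 CPM in GE (interaction −1.95 ± 0.25, adjusted p = 0.0137 by edgeR). RNF43, a ligase that removes WNT receptors from the cell surface, was at 8.15 to 11.2 CPM in control LE and at 0, 0.508, 0.906 and 2.81 CPM in pregnant LE, and at 7.19 to 20.3 and 6.76 to 31.6 CPM in GE (interaction −3.29 ± 0.52). LGR4, which opposes RNF43, had −1.64 ± 0.49 and was not called (adjusted p = 0.135 by edgeR). Of the transcription factors named here, PAX2, GATA2 and HOXA3 were lower in pregnant LE. PAX2 was at 361 ± 33.2 and 35 ± 30.6 CPM in control and pregnant LE and at 149 ± 127 and 102 ± 44.3 CPM in GE. FOXQ1 was higher in both cell types, at 2.85 ± 1.77 and 105 ± 49.6 CPM in LE and 4.86 ± 1.88 and 21.4 ± 8.36 CPM in GE.

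**Figure D4:**
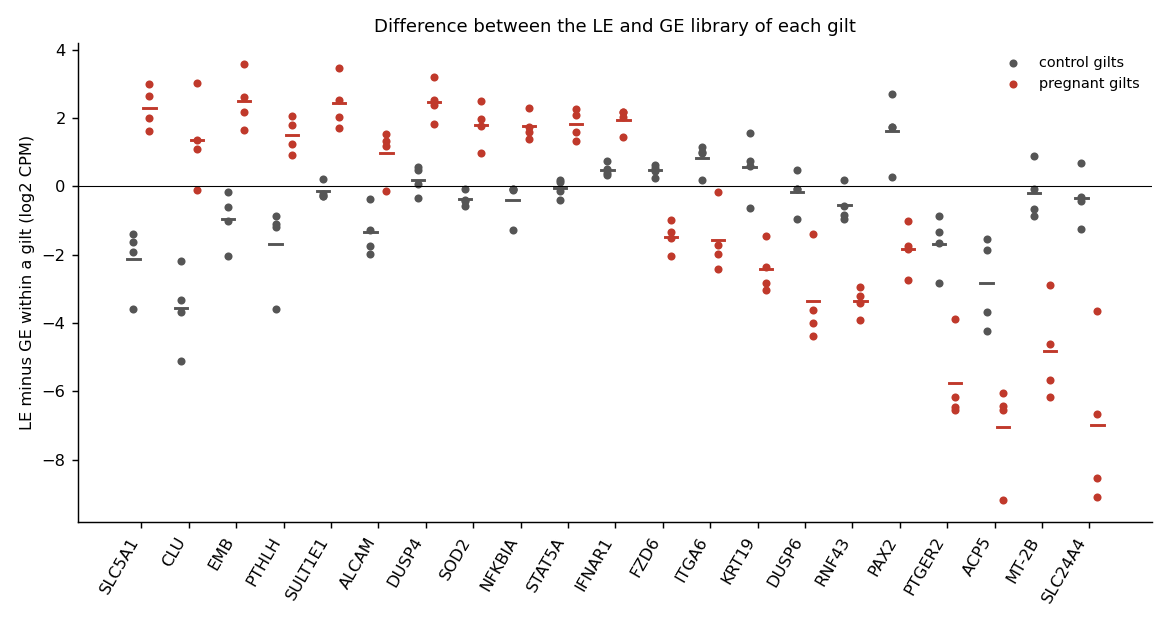
Difference between the LE and GE library of each gilt (log2 CPM, prior count 2) for 21 called genes, with control gilts in grey, pregnant gilts in red and bars at the means. The points of the 2 groups do not overlap in any of these genes, which were called on this same difference. The spread among pregnant gilts is widest in SLC24A4.

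A larger change in GE than in LE was seen in 4 called genes. CGNL1, a protein of epithelial junctions, was the only 1 of them in which both cell types separated the groups, in opposite directions. It was at 161 to 215 CPM in control LE and 227 to 355 CPM in pregnant LE, and at 369, 514, 305 and 552 CPM in control GE and 252, 259, 190 and 159 CPM in pregnant GE (interaction 1.49 ± 0.28). GLCE, an enzyme of heparan sulfate synthesis, was at 95.6, 73.2, 92.5 and 100 CPM in control GE and 207, 239, 272 and 132 CPM in pregnant GE, and at 72.5 to 89.8 and 51.0 to 78.1 CPM in LE (interaction −1.63 ± 0.29). KYNU, an enzyme of tryptophan breakdown, had effects of 0.97 in LE and −0.98 in GE, and the membrane protein STOM had −1.16 and 1.27. STOM overlaps LOC110259667, and their reads cannot be told apart with certainty. DNAJC12, a co-chaperone, was at 14.7 ± 6.89 and 3.38 ± 2.62 CPM in LE and at 41.7 ± 19.9 and 117 ± 65.4 CPM in GE.

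Several lists had no called gene. All 16 genes of motile cilia had an interaction below 0, with a median of −0.767, and none was called by edgeR, with 2 at an unadjusted p below 0.05 and 1 (ARMC4) called by DESeq2. Of 32 cell cycle genes 26 were above 0 (median 0.426) and none was called by edgeR or DESeq2, with 3 at an unadjusted p below 0.05. None was called among 80 cytosolic ribosomal proteins (median 0.160), 67 subunits of oxidative phosphorylation (−0.0143), 47 genes of the secretory pathway (0.00791), 19 hormone receptors and coregulators (−0.0768), 14 retinoid genes (−0.281), 12 genes of lysophosphatidic acid signaling (0.183) and 5 clade B serpins (0.216). At an unadjusted p below 0.05 these 7 lists held 4, 1, 4, 4, 2, 3 and 1 genes in this order, beside 15.9% of all genes, and DESeq2 called SEC63 of the secretory pathway and HSP90AA1 of the coregulators. ESR1, the estrogen receptor, had −0.997 ± 0.30 (adjusted p = 0.136 by edgeR) and PGR, the progesterone receptor, had −0.66 ± 0.33 (adjusted p = 0.382 by edgeR). The calcium-binding alarmins S100A8 and S100A9 and the protease inhibitor SERPINB2 were almost absent from control gilts, with at most 0.373 CPM in LE and 0 counts in all 4 GE libraries. In pregnant gilts S100A8 was at 99.2 to 597 CPM in LE and 7.63 to 120 CPM in GE, S100A9 at 147 to 2263 and 13.5 to 424 CPM, and SERPINB2 at 21.4 to 192 and 0.311 to 76.9 CPM. With control GE at 0 the fitted interaction of these 3 genes depends on the prior count, and none was called.

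The distance between the LE and GE library of a gilt, taken as the root mean square difference of log2 CPM over all joined genes, was 1.07, 1.25, 1.06 and 1.05 in pregnant gilts 01, 03, 05 and 14. In control gilts 02, 04, 06 and 13 it was 1.01, 0.925, 0.526 and 1.30. The means of 1.11 ± 0.0931 and 0.940 ± 0.319 (SD, n = 4) differed by 0.166, less than the spread of the control gilts (exact two-sided permutation test, p = 0.4, with 0.0286 the smallest p that 70 groupings allow). Without control gilt 13, the gilt with the largest distance, the difference was 0.286 (p = 0.0286, exact permutation test of 3 control against 4 pregnant gilts, the smallest p these allow). Without control gilt 06, the gilt with the smallest distance, it was 0.0281 (exact permutation test, p = 0.8).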

How the data were processed

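Read counts per gene of LE and GE areas captured by LCM were taken from the tables deposited for each cell type. According to the paper, the authors clipped adapters, mapped single reads with Hisat2 to Sscrofa11.1, removed PCR duplicates by random adapter bases and applied a CPM filter. The deposited counts are not normalized. How reads were assigned to genes, whether strand was used, and the filter's cut-off are not given in the sources used here, so that overlapping genes (such as MYO1D with CDK5R1) are uncertain. Both tables were joined by NCBI Gene ID, and symbols and positions were taken from RefSeq (Sscrofa11.1). No column of per-sample values was left unused.

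The interaction was fitted in edgeR 4.0.16 (R 4.3.3) with TMM, estimateDisp, glmQLFit and glmQLFTest, with 8 gilts as a block and 6 residual degrees of freedom. By the labels, a shared number marks LE and GE of 1 animal. Deviations from group means correlated within gilts with a median r of 0.271 (above 0.1 in 6 of 8 gilts), against −0.084 between gilts of a group. Such deviations cancel out within a group, so that positive values within gilts pull those between gilts down. The value of −0.084 is therefore no separate baseline. In simulated counts with 200 genes changed by 2 (log2) among 10851, 62 were found at an FDR of 0.01 (1 false call) and 124 at 0.05 (6 false calls). These counts were drawn from the means and dispersions of the fitted model, and genes with low counts were not changed. The simulation therefore checks the procedure and does not give the error rate in the data. Distances were compared with exact permutation tests. Alternatives used limma 3.58.1 and DESeq2 1.42.0.

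The comparison, the gene lists and the tests were chosen with earlier results of these data known. Genes are named by these rules: (a) the 15 largest positive and 15 largest negative interactions among genes at an FDR below 0.01 without overlap of the within-gilt differences, (b) the 10 largest GE effects among called genes with the larger effect in GE, (c) up to 10 called genes with opposite effects over 1 (log2), (d) genes the study names for a cell type, and (e) up to 4 genes of each list by p. As only 8 genes reached an FDR of 0.01, (a) to (c) were also read at 0.05 after the counts had been seen. EVC2, GATA2, HOXA3, IFNGR2, IL10RB, KCTD1, KRT19, LAPTM5, MSX1, MT1D, PAX2, PAXBP1, RPS6KA3, SOD2, STX18, SULT1E1, SYNJ1, TBK1, TNIP1, LOC102166944 and LOC110262053, the runs on chromosomes and the metal response element were chosen after their values were seen. Some genes and 1 gene list are not reported here. The p-values measure the spread between the gilts of each group, and limits of 3 counts cover counting error only.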

Additional observations from a re-analysis of the deposited data

Results flagged for a closer look

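In 8 genes the effect of pregnancy differed between LE and GE by the edgeR test of the difference itself at an FDR below 0.01. The interactions (log2, LE minus GE) were 2.29 for GAB1, 2.6 for HUNK, 1.98 for IFNAR2, −3.35 for TNIK, 4.56 for PCK2, 3.56 for NUPR1, 2.63 for BCAS3 and 1.75 for SPTY2D1.

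Single gilts stood apart from the other 3 of their group in the within-gilt difference between LE and GE (log2 CPM) in 14 of 294 groups of named genes (4.76%), and chance gives about 1 in 20. Control gilt 02 stood apart in HUNK (−1.29), NFKBIA (−1.28), CLDN4 (1.84) and ITGB6 (1.66). Control gilt 13 stood apart in PTHLH (−3.58) and PTGS2 (9.25), where its GE library held 0.275 CPM against 80.0 to 127 in the other control GE libraries. Control gilt 06 did so in ACOD1 (−0.861), ITGA6 (0.175) and SSR3 (−0.0539). Among pregnant gilts, gilt 05 stood apart in ACP5 (−9.19), gilt 14 in PTGER2 (−3.87) and S100A6 (0.997), gilt 03 in S100A16 (1.55) and gilt 01 in TGFA (0.0158).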

How the results depend on the processing

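All 176 called genes kept their sign in every alternative fit, while the number of calls changed. At an FDR below 0.01 the 8 calls became 0 with library size only, with no replicate block, with legacy quasi-likelihood, with thinned counts and without gilts 01 and 02 (chosen after seeing the data), and became 36 with a random replicate block, 48 with all 22 libraries, 288 with the likelihood ratio test and 331 with DESeq2. The split of 7 positive and 1 negative calls became 22 and 14, 19 and 29, 142 and 146, and 169 and 162 in the last 4 fits, and 3 and 5 without gilt 14. At an FDR below 0.05 the 176 calls became 104 without the gilt block (80 shared), 99 with at least 10 counts in every library (8404 genes tested), 335 with 22 libraries, 593 with the likelihood ratio test, 622 with DESeq2 and 93 without gilts 01 and 02. The share of positive calls, 51.1%, was 37.8% with library size only, 64.6% with at least 10 counts in every library, and 43.6% (without gilt 14) to 81.8% (without gilt 04) without 1 gilt. At an unadjusted p below 0.0021 the 303 calls became 548 and 567 with the likelihood ratio test and DESeq2. Leaving out 1 gilt at a time gave 0 to 8, 11 to 275 and 173 to 347 calls at these 3 thresholds. Of the 176 genes, 53 were called in at least 4 of these 8 fits and 9 in none, among them EVC2, FOSL2, RPS6KA3 and TBK1. Among other genes described above, ACP5, ITGA6, CGNL1, LAPTM5 and TNIP1 were called in 1 of these fits. DUSP6, ALCAM, MT1A, STOM, KYNU, DNAJC12 and KCTD1 were called in 2. SLC24A4, PTGER2, MT-2B and GLCE, among others, were called in 3. The difference in distance between LE and GE was 0.0281 to 0.286 without 1 gilt. The causes of these changes were not tested. The list medians were recomputed with 3 other scalings only, and that of the hormone receptors moved, to −0.2 with library size only.

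Signs changed in 9 genes that were not called. In fits without 1 gilt, S100A12 (1.16) ranged from −0.221 (without gilt 06) to 1.53, S100G (0.54) from −0.365 (06) to 1.41, TRPV6 (−0.136) from −1.06 to 0.43 (02), SERPINB2 (0.216) from −0.194 (03) to 0.884, SERPINB7 (4.11) from −0.417 (02) to 7.91, PTGS2 (−0.645) from −1.41 to 0.359 (13), EGF (−0.601) from −1.32 to 0.182 (13) and IRAK3 (−0.00454) from −0.556 to 0.274 (01). Without gilts 01 and 02, TRPV6 was at 0.556, SERPINB7 at −0.345 and IRAK3 at 0.433. With no replicate block, TRPV6 was at 0.218, SERPINB2 at −0.392, PTGS2 at 0.0369, EGF at 0.446 and IRAK3 at 0.387. With thinned counts, S100A12 was at −0.135, TRPV6 at 0.251 and SLCO5A1 (3.01) at −0.608. With the random replicate block, S100G was at −0.614 and IRAK3 at 0.0815. TRPV6 was at 0.0572 with prior count 2. IRAK3 was at 0.0205 with TMM per cell type, 0.0245 with limma, 0.0061 with legacy quasi-likelihood and 0.161 with 22 libraries.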

Other observations

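Stroma of 3 control and 3 pregnant gilts gave values for the same 8 genes. NUPR1 was at 6.19 ± 3.66 CPM in control and 179 ± 178 CPM in pregnant stroma (SD, n = 3), PCK2 at 1.14 ± 0.339 and 19.9 ± 21 CPM, and IFNAR2 at 24.2 ± 5.64 and 80.7 ± 54.5 CPM. The groups did not overlap in NUPR1, PCK2, IFNAR2, HUNK and BCAS3, and overlapped in GAB1, SPTY2D1 and TNIK. The share of all stroma genes without overlap is not given here. None of the 8 genes had an adjusted p below 0.0902 (NUPR1, edgeR) for pregnancy in stroma. TNIK, which was lower in pregnant LE, was at 75.9 ± 16.2 and 103 ± 34.5 CPM in stroma.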
